A study of Mus musculus with 18 samples.

Results

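S100a8, S100a9, Retnlg, Csf3r, Ngp, Camp, Mmp8, Mmp9 and Il1r2 are genes that neutrophils transcribe for their granules, cytosol and surface. These 9 genes were taken by name from the 32675 genes measured in mouse kidney. S100a8 and S100a9, the most abundant of them, were higher in the kidneys of socially defeated mice given saline than in undefeated controls, by 2.96 and 2.66 on the log2 scale, and Ngp was detected in defeated mice and in no control. In defeated mice given fluoxetine, S100a8 was lower than under saline by 3.14 on the log2 scale, and the FLX and Ctrl ranges overlapped. Its adjusted p there was 0.0402 by edgeR's quasi-likelihood test and rose above 0.05 on leaving out any of many single mice. None of the other genes had an adjusted p under 0.05 by that test in this comparison. The saline-treated mouse PBS_6 had 68.1 FPKM (fragments per kilobase of exon, scaled to the mapped fragments of the library) of the 9 genes together, against 7.29 to 26.6 FPKM in the other 5, and for the 9 genes each comparison with the PBS group is given without and with that mouse.

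Right kidneys of 18 wild type C57BL/6 male mice, aged 6 weeks by the labels, were analysed by bulk RNA sequencing of poly(A) RNA, with 6 mice in each of 3 groups. Mice of the PBS and FLX groups underwent chronic social defeat stress (CSDS), in which each met an aggressive CD-1 resident for 10 min a day on 14 days and stayed in sensory contact with it afterwards. During CSDS the FLX group received a daily intraperitoneal injection of fluoxetine, a selective serotonin reuptake inhibitor, in a dose of 10 mg per kg, while PBS mice were injected with the phosphate-buffered saline that served as its solvent. The Ctrl group was handled daily and not defeated, and no injection is stated for it, so that defeat and injection cannot be told apart in PBS versus Ctrl. No undefeated group received fluoxetine. Each mouse gave 1 library. The study left out 1 PBS mouse, which it does not name, because of its high expression of inflammatory factors. PBS_6 was set apart here by the rule that chose the genes, and since the reason given for the omission is of the same kind as the genes measured, leaving that mouse out is a choice tied to the outcome. Perfusion is described for mice whose kidneys went to histology, and it is not stated for the kidneys used for RNA.

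Neutrophils are short-lived white blood cells that are made in the bone marrow and load their granules in successive steps of maturation. Azurophil granules come first, then specific granules, which hold the proteins of Ngp, Camp and Mmp8, and then gelatinase granules, which hold that of Mmp9. The calprotectin subunits encoded by S100a8 and S100a9 make up much of the cytosolic protein. Granulocyte colony-stimulating factor, which acts through the receptor encoded by Csf3r, drives the production and release of the cells. Few neutrophils lie in healthy kidney, and they enter it when tubules are injured. A lower level in bulk kidney RNA can mean fewer cells or less RNA per cell, which cannot be told apart here, and some of the genes can be transcribed by monocytes, macrophages or kidney cells as well.

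Positions of the genes are those of GRCm38. S100a8 (ENSMUSG00000056054, chr3:90668978-90670035, plus strand) and S100a9 (ENSMUSG00000056071, chr3:90692632-90695721, minus strand) lie 22.6 kb apart, and Camp (ENSMUSG00000038357, chr9:109847379-109849617, minus strand) and Ngp (ENSMUSG00000032484, chr9:110419747-110423012, plus strand) lie 570.1 kb apart. Mmp8 (ENSMUSG00000005800, chr9:7558456-7568485, plus strand) is on the same chromosome as Ngp. Mmp9 (ENSMUSG00000017737) lies at chr2:164940780-164955850, Retnlg (ENSMUSG00000022651) at chr16:48872621-48874496, Csf3r (ENSMUSG00000028859) at chr4:126024550-126044440 and Il1r2 (ENSMUSG00000026073) at chr1:40074079-40125231, all on the plus strand. RefSeq promoters of GRCm38.p6, which run from 250 bases before the start of transcription to 50 after it, were found for 8 of the 9 genes. Shown here are the 250 bases before the start for both calprotectin genes, for Ngp and for Retnlg, the genes that were called in PBS versus Ctrl with 5 or 6 PBS mice. Capitals mark TTGCNNAA, a core of the sites bound by C/EBP factors of granulocytes, read on either strand, and the TATA box letters TATAAA on either strand.
S100a8 (chr3:90668821-90669070, plus strand): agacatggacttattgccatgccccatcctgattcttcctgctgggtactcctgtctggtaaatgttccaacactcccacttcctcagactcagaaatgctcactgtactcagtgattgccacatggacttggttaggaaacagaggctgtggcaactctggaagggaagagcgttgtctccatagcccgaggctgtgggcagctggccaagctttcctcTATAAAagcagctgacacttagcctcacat
S100a9 (chr3:90695722-90695971, minus strand): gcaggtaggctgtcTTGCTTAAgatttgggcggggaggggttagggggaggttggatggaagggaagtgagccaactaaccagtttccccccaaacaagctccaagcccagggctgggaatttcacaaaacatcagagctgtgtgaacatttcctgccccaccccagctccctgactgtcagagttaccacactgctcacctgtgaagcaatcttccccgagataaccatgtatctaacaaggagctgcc
Ngp (chr9:110419558-110419807, plus strand): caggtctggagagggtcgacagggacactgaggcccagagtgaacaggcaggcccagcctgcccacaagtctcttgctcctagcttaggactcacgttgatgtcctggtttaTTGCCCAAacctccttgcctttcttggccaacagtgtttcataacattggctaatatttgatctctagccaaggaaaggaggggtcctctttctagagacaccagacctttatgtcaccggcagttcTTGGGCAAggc
Retnlg (chr16:48872358-48872607, plus strand): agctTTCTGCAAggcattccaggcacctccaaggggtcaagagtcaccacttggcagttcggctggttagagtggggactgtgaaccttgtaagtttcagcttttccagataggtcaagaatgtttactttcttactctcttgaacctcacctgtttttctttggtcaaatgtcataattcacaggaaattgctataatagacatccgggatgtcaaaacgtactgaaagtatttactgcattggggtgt

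Ngp held 2 matches to TTGCNNAA, 138 and 11 bases before its RefSeq start. S100a9 held 1 match 236 bases before its start, Retnlg 1 match 246 bases before, and Mmp8 1 match 19 bases before. S100a8 held no match to these letters and had TATAAA 30 bases before its start. In all, 4 of the 8 windows held TTGCNNAA, against 10.8% of 27025 RefSeq mouse promoters of the same length. TATAAA was found in 3 of the 8 windows, against 14.2% of all promoters, and GAGGAA, a core of sites bound by ETS factors such as PU.1, in 3 of the 8, against 28.3%. Matches to different motifs could overlap. These matches describe letters in a window around a start that differs between annotations for several of the genes, and no binding was measured.

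Total deposited counts were 72149987 to 79061296 in 14 mice and 48928823 to 52073640 in FLX_3 to FLX_6, so that low genes were measured less precisely in these 4 mice. Summed FPKM of 9 kidney markers, led by Umod, lay between 1942 and 2575 in the 18 mice, and 0 of the 9 was called by edgeR, DESeq2 or limma in PBS versus Ctrl or FLX versus PBS with 5 PBS mice (2 and 1 at an unadjusted p under 0.05). The sum does not show that Slc34a1, a marker among these, was 362 FPKM in PBS_6. Slc34a1 was 678 to 912 FPKM in Ctrl mice, 704 to 879 in PBS_1 to PBS_5 and 725 to 874 in FLX mice. Of the 9 genes, 7 stayed under 0.5 FPKM in every Ctrl mouse, near the lower limit of what these libraries can measure. Groups were compared with edgeR's quasi-likelihood test, with p values adjusted over all 20251 genes that passed a filter on low counts (19946 with PBS_6), and a gene was called when its adjusted p was under 0.05. Differences in mean log2(FPKM + 0.1) were also tested gene by gene with an exact two-sided permutation test over mice. Its smallest possible p is 0.00433 for 5 against 6 mice and 0.00216 for 6 against 6. Of the 9 genes, 8 passed the filter and Camp did not. Ngp, which was at 0 in every Ctrl mouse, could pass only through the defeated mice, so the number of genes tested is itself tied to the difference.

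**Figure D1:**
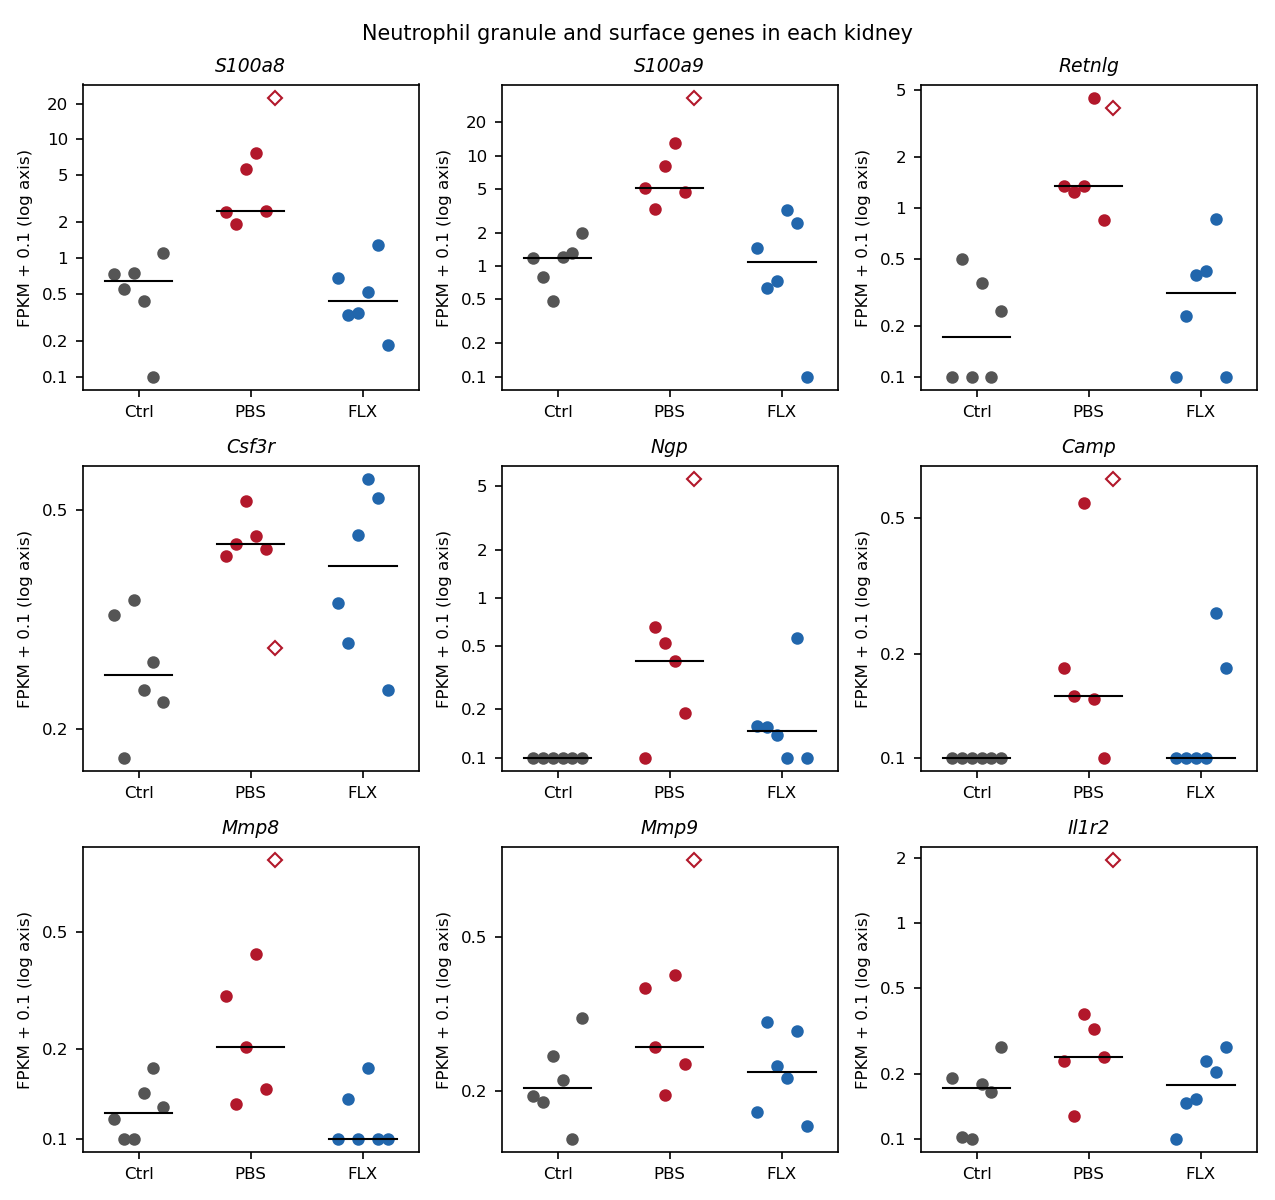
FPKM + 0.1 on a log axis for each of the 9 genes in every mouse of the Ctrl, PBS and FLX groups; circles are mice, the open diamond is PBS_6 and lines are group medians without PBS_6. S100a8, S100a9, Retnlg and Csf3r of the 5 PBS mice drawn as circles lie above every Ctrl mouse, and S100a8 and S100a9 of every FLX mouse lie below them.

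S100a8 and S100a9 encode calcium- and zinc-binding proteins that pair as calprotectin, an antimicrobial protein and alarmin. S100a8 was between 0 and 1.002 FPKM in Ctrl mice, with a median of 0.536 (n = 6). In PBS_1 to PBS_5 it was 2.34, 1.82, 5.52, 7.65 and 2.37 FPKM, and in PBS_6 22.1 FPKM. In FLX mice it was between 0.0833 and 1.20 FPKM, with a median of 0.331 (n = 6). Every PBS mouse was above every Ctrl mouse and every FLX mouse, while the Ctrl and FLX ranges overlapped. S100a8 rose by 2.96 ± 0.68 (log2 fold change ± SE, 5 PBS mice) in PBS versus Ctrl, with an adjusted p of 0.0205 by edgeR's quasi-likelihood test, and by 3.74 ± 0.76 with all 6 PBS mice (adjusted p = 0.0102). It fell by 3.14 ± 0.69 in FLX versus PBS (adjusted p = 0.0402 by the same test), and by 3.93 ± 0.77 with 6 PBS mice (adjusted p = 0.0275). The exact permutation test gave 0.00433 in both comparisons with 5 PBS mice, its smallest possible value. FLX and Ctrl differed by -0.19 ± 0.65 (adjusted p = 0.910), with a 95% interval of -1.47 to 1.09. The call in PBS versus Ctrl was lost with 5 PBS mice without Ctrl_2 (adjusted p = 0.0510) or PBS_4 (0.0703), and in none of the 17 fits that left out 1 mouse with PBS_6 included. Against PBS, FLX_1 and FLX_2 alone gave -3.28 ± 1.04 (adjusted p = 0.563) and the 4 FLX mice of lower total count alone gave -3.08 ± 0.84 (adjusted p = 0.178). The call in FLX versus PBS was lost on leaving out any of 11 of the 17 mice, with adjusted p values between 0.0530 without Ctrl_4 and 0.142 without PBS_4. The others of these were Ctrl_1 (0.0550), Ctrl_2 (0.0551), FLX_1 (0.0815), FLX_2 (0.0886), FLX_3 (0.0864), FLX_4 (0.0673), FLX_6 (0.0889), PBS_1 (0.0644) and PBS_3 (0.0745). With PBS_6 included it was lost without FLX_1 (0.0585), FLX_2 (0.0658), FLX_3 (0.0613), FLX_6 (0.0703) or PBS_4 (0.0554).

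S100a9, the other calprotectin subunit, was between 0.387 and 1.91 FPKM in Ctrl mice, with a median of 1.09 (n = 6). PBS_1 to PBS_5 held 5.03, 3.17, 7.91, 13.01 and 4.63 FPKM, and PBS_6 held 32.8 FPKM. Levels in FLX mice were between 0 and 3.12 FPKM, with a median of 0.994 (n = 6). The lowest PBS mouse (3.17 FPKM) was only just above the highest FLX mouse, FLX_4 (3.12 FPKM), and well above the highest Ctrl mouse. S100a9 rose by 2.66 ± 0.66 in PBS versus Ctrl (5 PBS mice, adjusted p = 0.0285 by edgeR's quasi-likelihood test) and by 3.35 ± 0.72 with 6 PBS mice (adjusted p = 0.0143). In FLX versus PBS its log2 fold change was -2.45 ± 0.65 (adjusted p = 0.0959) with 5 PBS mice and -3.14 ± 0.71 (adjusted p = 0.0509) with 6, neither of which was called. By the exact permutation test, p was 0.00433 for FLX versus PBS with 5 PBS mice. FLX versus Ctrl was 0.21 ± 0.62 (adjusted p = 0.893), with a 95% interval of -1.01 to 1.43. The call in PBS versus Ctrl was lost without Ctrl_1 (adjusted p = 0.0589), Ctrl_2 (0.0699), Ctrl_4 (0.0539), Ctrl_5 (0.0566), PBS_1 (0.0516) or PBS_4 (0.0969), and in none of the 17 fits that left out 1 mouse with PBS_6 included. The ratio of S100a9 to S100a8 FPKM was 1.43 to 2.15 in the 6 PBS mice, PBS_6 included. It was 0.603 to 3.29 in the 5 Ctrl mice with S100a8 above 0, and in FLX mice 1.98 to 7.43 in 5 and 0 in FLX_6, where S100a9 was at 0. S100a8 and S100a9 together made up 68.5% to 82.5% of the summed FPKM of the 9 genes in PBS mice.

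Among the granule genes, Ngp, which encodes neutrophilic granule protein, a relative of the cathelicidins, was at 0 in all 6 Ctrl mice. Its levels in PBS_1 to PBS_5 were 0, 0.552, 0.423, 0.304 and 0.0905 FPKM, and in PBS_6 5.40 FPKM. In FLX mice it was between 0 and 0.459 FPKM, with a median of 0.0469 and 2 mice at 0 (n = 6). PBS_1 was thus at the level of the controls, and FLX_5 was within the range of the PBS mice. Ngp was called in PBS versus Ctrl (adjusted p = 0.0289 by edgeR's quasi-likelihood test with 5 PBS mice, 0.0204 with 6). DESeq2 gave it no adjusted p with 5 PBS mice and called it with 6, and limma on log2(FPKM + 0.1) did not call it with 5 (adjusted p = 0.0562) or 6 (0.0573). A fitted fold against a group at 0 rests on the prior count, so the fold was set against a floor of 3 read pairs, taken as 12 counts, in each Ctrl library. Ngp was at least 2.48-fold higher in PBS than that floor with 5 PBS mice and at least 10.2-fold higher with 6. The exact permutation test gave p = 0.0303 for PBS versus Ctrl with 5 PBS mice, of which 4 were above 0. FLX versus PBS was -1.52 ± 1.20 (adjusted p = 0.736) with 5 PBS mice and -3.50 ± 1.34 (adjusted p = 0.284) with 6, and FLX versus Ctrl was not called (adjusted p = 0.0683, and 0.161 with 6 PBS mice). The call in PBS versus Ctrl was lost without Ctrl_1 (adjusted p = 0.0528), Ctrl_2 (0.0539), Ctrl_5 (0.0538), PBS_2 (0.0515) or PBS_4 (0.0579) among the 16 of 17 such fits with 5 PBS mice in which Ngp passed the filter, and kept in all 17 fits that left out 1 mouse with PBS_6 included.

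Camp encodes cathelicidin, the precursor of an antimicrobial peptide of specific granules. It was also at 0 in every Ctrl mouse. In PBS_1 to PBS_5 it was 0.0829, 0.0516, 0.454, 0.0485 and 0 FPKM, and in PBS_6 0.548 FPKM. In FLX mice it reached 0.165 FPKM in FLX_5 and was at 0 in 4 of 6. Camp and Ngp were thus both listed at 0 in the Ctrl libraries. PBS_5 held Ngp and no Camp, and PBS_1 held Camp and no Ngp. Camp did not pass the filter. Without the filter its adjusted p in PBS versus Ctrl was 0.123 by edgeR's quasi-likelihood test with 5 PBS mice and 0.0741 with 6, and the mean of the 5 PBS mice was under the floor, so no fold is given. By the exact permutation test, p was 0.0303 with 5 PBS mice, not adjusted for the number of genes. PBS_1 to PBS_5 had 6, 4, 30, 4 and 0 counts of Camp. That p thus reflects 4 of 5 PBS mice being above 0 and not a level above the floor.

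Mmp8, the collagenase of specific granules, was between 0 and 0.0729 FPKM in Ctrl mice, with a median of 0.0224 (n = 6). PBS_1 to PBS_5 held 0.202, 0.0313, 0.104, 0.322 and 0.0474 FPKM, and PBS_6 held 0.771 FPKM. Levels in FLX mice were between 0 and 0.0734 FPKM, with 4 of 6 mice at 0. PBS_1, PBS_3, PBS_4 and PBS_6 were above every other mouse of the study, and PBS_2 and PBS_5 lay among the Ctrl values. Neither PBS versus Ctrl (2.35 ± 1.13, adjusted p = 0.286 by edgeR's quasi-likelihood test) nor FLX versus PBS (-3.00 ± 1.18, adjusted p = 0.313) was called with 5 PBS mice, and with 6 the adjusted p values were 0.120 and 0.152. The exact permutation test, which is not adjusted for the number of genes, gave 0.0303 and 0.0216 with 5 PBS mice.

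Mmp9 encodes the gelatinase of gelatinase granules and is also transcribed by macrophages. It was between 0.0503 and 0.208 FPKM in Ctrl mice, with a median of 0.104 (n = 6). Its levels in PBS_1 to PBS_5 were 0.269, 0.160, 0.0944, 0.297 and 0.134 FPKM, and in PBS_6 0.689 FPKM. FLX mice held 0.0616 to 0.201 FPKM, with a median of 0.124 (n = 6). All 3 groups overlapped, and PBS_1, PBS_4 and PBS_6 alone were above both other groups. PBS versus Ctrl was 0.73 ± 0.41 (adjusted p = 0.379 by edgeR's quasi-likelihood test) with 5 PBS mice and 1.22 ± 0.46 (adjusted p = 0.138) with 6, and the exact permutation test gave p = 0.121 with 5. FLX versus PBS was -0.66 ± 0.41 (adjusted p = 0.619) with 5 PBS mice and -1.14 ± 0.46 (adjusted p = 0.292) with 6.

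Retnlg encodes resistin-like gamma, a secreted protein of granulocytes. It was between 0 and 0.394 FPKM in Ctrl mice, with a median of 0.0718 and 3 of 6 mice at 0. In PBS_1 to PBS_5 it was 1.26, 1.14, 1.24, 4.36 and 0.752 FPKM, and in PBS_6 3.79 FPKM. In FLX mice it was between 0 and 0.765 FPKM, with a median of 0.214 (n = 6). Every PBS mouse was above every Ctrl mouse, and FLX_5 alone reached the lowest PBS mouse, PBS_5. In PBS versus Ctrl the log2 fold change was 3.69 ± 1.09 with 5 PBS mice, which was not called (adjusted p = 0.0691 by edgeR's quasi-likelihood test), while with 6 Retnlg rose by 3.92 ± 1.05 (adjusted p = 0.0401). The exact permutation test gave p = 0.00433 with 5 PBS mice, its smallest possible value. FLX versus PBS was -2.89 ± 1.06 (adjusted p = 0.265) with 5 PBS mice and -3.12 ± 1.01 (adjusted p = 0.174) with 6, where the exact permutation test gave 0.00866 and 0.00433. With 6 PBS mice the call in PBS versus Ctrl was lost without Ctrl_1 (adjusted p = 0.0803), Ctrl_4 (0.0611), Ctrl_5 (0.0808), Ctrl_6 (0.0727), FLX_2 (0.0511), PBS_1 (0.0580) or PBS_4 (0.0916).

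Of the surface genes, Csf3r, the receptor of granulocyte colony-stimulating factor, was between 0.0777 and 0.243 FPKM in Ctrl mice, with a median of 0.150 (n = 6). PBS_1 to PBS_5 held 0.313, 0.335, 0.420, 0.348 and 0.324 FPKM. PBS_6 held 0.181 FPKM, below each of these and inside the Ctrl range. FLX mice held 0.136 to 0.469 FPKM with a median of 0.295 (n = 6), from inside the Ctrl range to above every PBS mouse. Csf3r was the gene of the 9 in which PBS_6 was lowest among PBS mice. PBS versus Ctrl was 1.11 ± 0.32 with 5 PBS mice (adjusted p = 0.0571 by edgeR's quasi-likelihood test) and 0.99 ± 0.32 with 6 (adjusted p = 0.0869), and the exact permutation test gave 0.00433 and 0.00649. FLX versus PBS was -0.31 ± 0.31 (adjusted p = 0.805), with a 95% interval of -0.92 to 0.31, and -0.18 ± 0.32 (adjusted p = 0.884) with 6 PBS mice, and FLX versus Ctrl was 0.81 ± 0.30 (adjusted p = 0.144). The result sat at the threshold, since Csf3r was called in PBS versus Ctrl without Ctrl_3 (adjusted p = 0.0284) or FLX_6 (0.0379), and with 6 PBS mice without Ctrl_3 (0.0459).

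Il1r2 encodes the decoy receptor of interleukin-1, which binds the cytokine without signalling. It was between 0 and 0.166 FPKM in Ctrl mice, with a median of 0.0710 (n = 6). Its levels in PBS_1 to PBS_5 were 0.130, 0.0268, 0.276, 0.222 and 0.138 FPKM, and in PBS_6 1.85 FPKM. FLX mice held 0 to 0.165 FPKM, with a median of 0.0776 (n = 6). The 3 groups overlapped, and PBS_6 stood 6.68 times above the next mouse, PBS_3. PBS versus Ctrl was 1.22 ± 0.90 with 5 PBS mice (adjusted p = 0.522 by edgeR's quasi-likelihood test) and 2.62 ± 0.98 with 6 (adjusted p = 0.138), and the exact permutation test gave 0.108 and 0.0541. FLX versus PBS was -1.05 ± 0.90 (adjusted p = 0.756) with 5 PBS mice and -2.46 ± 0.98 (adjusted p = 0.291) with 6.

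**Figure D2:**
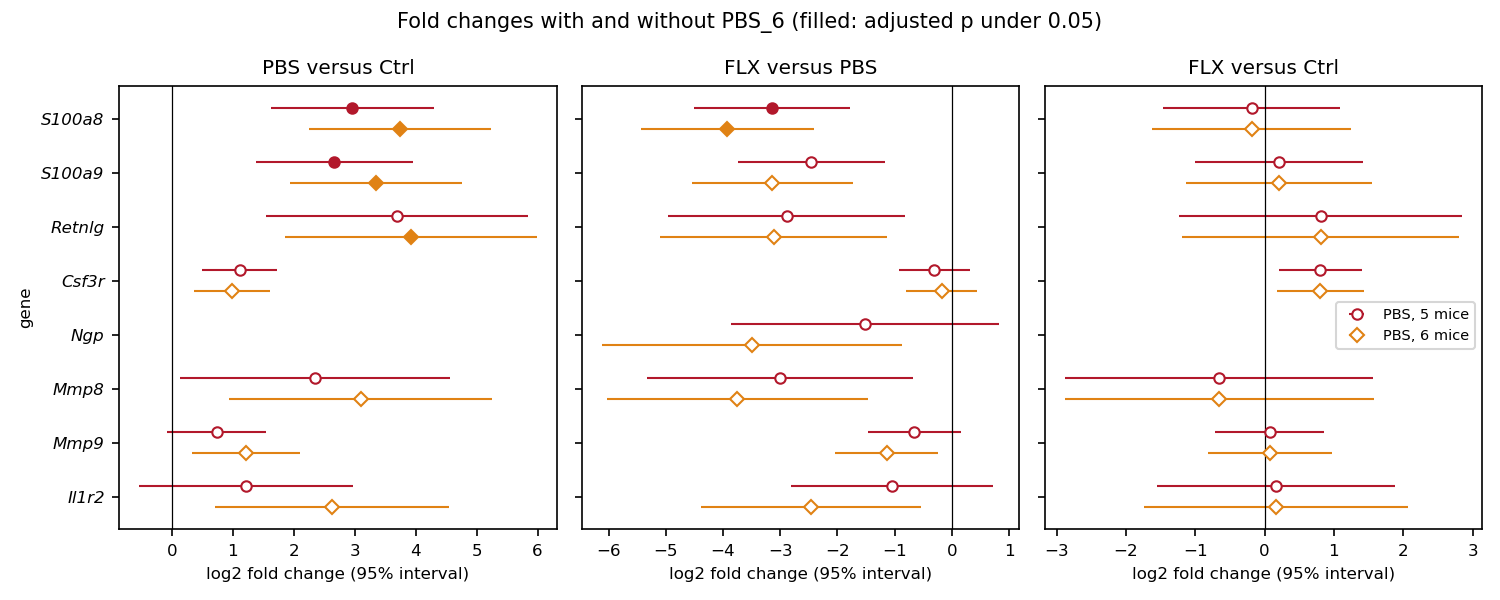
Log2 fold changes of 7 genes tested (8 in FLX versus PBS) with 95% intervals from edgeR's quasi-likelihood fit, with 5 PBS mice (circles) and all 6 (diamonds); filled symbols have an adjusted p under 0.05, and Ngp is not drawn against Ctrl, where it was at 0. S100a8 and S100a9 are filled in PBS versus Ctrl at 2.96 and 2.66 with 5 PBS mice, Retnlg is filled with 6 only, and S100a8 alone is filled in FLX versus PBS.

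Counted together in PBS versus Ctrl with 5 PBS mice, 3 of the 8 genes tested were called and all 3 were higher, where 2.14% of all genes tested were called higher (3.81% in either direction). With 6 PBS mice 4 of 8 were called higher, against 2.45% of all genes tested (4.28% in either direction). The 5 PBS mice lay wholly above the Ctrl mice for 4 of the 9 genes (S100a8, S100a9, Retnlg and Csf3r), against 1.77% of all genes tested, and the 6 PBS mice for 3 of the 9, against 1.34%. Mean FPKM was higher in PBS than in Ctrl for 9 of 9 genes, with and without PBS_6. The share of all genes with a higher mean was not computed, and the 9 share libraries, so they are not separate results. The median log2 fold change was 2.51 for the 8 genes and -0.0078 for all genes tested, with 5 PBS mice. The 9 genes were chosen with earlier results of these data known, and the study itself reports S100a8 and S100a9 as changed. Ngp could pass the filter only through the defeated mice. The shares over all genes are therefore given for scale and do not test the set. DESeq2, run on the same counts, gave an adjusted p to 5 of the 8 genes with 5 PBS mice and to all 8 with 6. It called Csf3r, Retnlg, S100a8 and S100a9 higher with 5 PBS mice, where it called 4.54% of all genes it tested higher, and added Ngp and Il1r2 with 6, against 5.36%. Limma on log2(FPKM + 0.1) called Retnlg, S100a8 and S100a9 higher with 5 PBS mice, against 1.84% of all genes tested, and the same 3 with 6, against 2%.

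In FLX versus PBS with 5 PBS mice, 1 of the 8 genes was called lower (S100a8), where 0.42% of all genes tested were called lower. With 6 PBS mice it was again S100a8 alone, against 0.331%. The FLX mice lay wholly below the PBS mice for 2 of the 9 genes (S100a8 and S100a9), against 0.469% of all genes tested with 5 PBS mice and 0.301% with 6. Mean FPKM was lower in FLX than in PBS for 9 of 9 genes. These genes share libraries and were chosen with earlier results of these data known, so neither this count nor the shares test the set. FLX versus PBS and PBS versus Ctrl share their PBS mice, so their opposite signs are not separate results. DESeq2 called S100a8 and S100a9 lower with 5 and with 6 PBS mice, where it called 1.52% and 1.7% of all genes it tested lower. Limma called Retnlg and S100a8 lower with 5 PBS mice, against 0.311% of all genes tested, and S100a9 as well with 6, against 0.281%.

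In FLX versus Ctrl, where the PBS mice enter the filter, the scaling and the estimate of spread but neither mean compared, 0 of the 8 genes was called by edgeR's quasi-likelihood test, where 3.67% of all genes tested were called (1.77% with 6 PBS mice). At an unadjusted p under 0.05 there were 2, Csf3r and Ngp, both higher in FLX. DESeq2 called 0 of the 3 genes to which it gave an adjusted p with 5 PBS mice and 1 of 6, Ngp, with all PBS mice, against 10.9% and 6.38% of all genes it tested. By the exact permutation test, p was 0.0519 for Csf3r and 0.0606 for Ngp. The 95% intervals of Retnlg (-1.23 to 2.85), Mmp8 (-2.89 to 1.57), Mmp9 (-0.71 to 0.85) and Il1r2 (-1.55 to 1.87) are wide for these low genes.

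**Figure D3:**
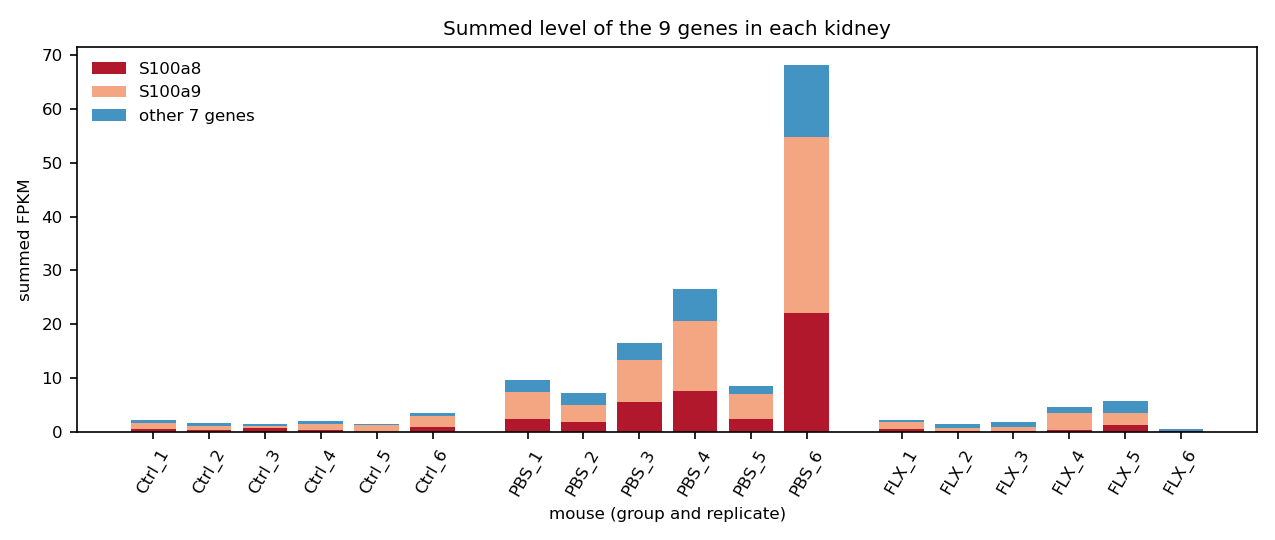
Summed FPKM of the 9 genes in each mouse, as stacked bars for S100a8, S100a9 and the other 7 genes together. Ctrl mice reach 1.42 to 3.58, PBS_1 to PBS_5 7.29 to 26.6, PBS_6 68.1 and FLX mice 0.528 to 5.67.

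The defeated mice given saline did not form an even group. The sum of the 9 genes was 9.62, 7.29, 16.4, 26.6 and 8.48 FPKM in PBS_1 to PBS_5, and Ctrl mice held 1.42 to 3.58 FPKM. PBS_4 had the highest level of the 5 mice for S100a8, S100a9, Retnlg, Mmp8 and Mmp9, PBS_3 for Csf3r, Camp and Il1r2, and PBS_2 for Ngp. The genes thus did not rank the mice alike. With PBS_6 included, that mouse was highest for 7 of the 9 genes, by 9.79 times the next mouse for Ngp, 2.88 times for S100a8, 2.52 times for S100a9 and 1.21 times for Camp. For Retnlg it was below PBS_4, and for Csf3r it was below the 5 others. FLX mice ranged from 0.528 FPKM in FLX_6 to 5.67 FPKM in FLX_5, so the highest FLX mouse was below the lowest PBS mouse. Within groups, the Pearson correlations of log2(FPKM + 0.1) over 17 mice for the 36 pairs of genes ran from -0.28 for Mmp8 and Ngp to 0.58 for Csf3r and S100a9, with a median of 0.27, and were 0.55 for S100a8 with S100a9 and 0.47 for Camp with Ngp. These pairs share libraries and, for the low genes, a few counts.

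Mean FPKM, a level per length of transcript, was highest for S100a9 in each of the 3 groups. The order by mean FPKM of the 5 PBS mice was S100a9 (6.75 ± 3.90, mean ± SD), S100a8 (3.94 ± 2.54), Retnlg (1.75 ± 1.47), Csf3r (0.348 ± 0.042), Ngp (0.274 ± 0.229), Mmp9 (0.191 ± 0.088), Il1r2 (0.159 ± 0.096), Mmp8 (0.141 ± 0.121) and Camp (0.127 ± 0.185). S100a9 was above S100a8, S100a8 above Retnlg and Retnlg above Csf3r in each of the 5 mice. From Csf3r on, each pair of neighbours changed places between mice. Csf3r had the smallest SD of the 9 genes in these mice.

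Other genes of the neutrophil were compared with these 9. Ly6g, which encodes the surface antigen that defines mouse neutrophils, was at 0 in 14 of the 18 mice and at most 0.171 FPKM, in Ctrl_2. Cxcr2, the chemokine receptor that brings neutrophils from blood into tissue, was above 0 in all 6 PBS mice, between 0.0253 and 0.258 FPKM, and was at 0 in 5 of 6 Ctrl mice and 3 of 6 FLX mice. Cxcr1 and Fpr1 reached at most 0.0847 FPKM in PBS_3 and 0.403 FPKM in FLX_5. Clec4d, a lectin receptor of neutrophils and monocytes, was 0.0954 to 0.214 FPKM in PBS_1 to PBS_5, 1.12 FPKM in PBS_6, at most 0.0385 FPKM in Ctrl mice and at 0 in 4 of 6 FLX mice, with 0.333 FPKM in FLX_5. Trem1, an activating receptor of the same cells, was 0.0148 to 0.115 FPKM in PBS_1 to PBS_5 and 0.602 FPKM in PBS_6, at most 0.0459 FPKM in Ctrl mice and at 0 in 5 of 6 FLX mice. Every PBS mouse was thus above every Ctrl mouse for Cxcr2 and Clec4d and not for Ly6g, Fpr1 or Trem1. FLX mice overlapped the PBS mice for Cxcr2 and Clec4d. These genes were named after their values were seen, and 1.77% of all genes tested lay wholly higher in 5 PBS mice and 1.34% in 6. The gap was 7 counts in PBS_1 against 6 in Ctrl_3 for Cxcr2, and 13 in PBS_5 against 6 in Ctrl_5 for Clec4d. Itgam, the integrin subunit CD11b of neutrophils and macrophages, was 0.0532 to 0.250 FPKM in PBS_1 to PBS_5 and 2.73 FPKM in PBS_6. Ctrl mice held 0.0709 to 0.196 FPKM of it and FLX mice 0.0520 to 0.336 FPKM. Lcn2, a specific granule protein that injured tubules also make, was 0.985 to 4.42 FPKM in PBS_1 to PBS_5, 49.2 FPKM in PBS_6 and 0.474 to 1.82 FPKM in Ctrl mice. In FLX mice Lcn2 was 0.865 to 6.37 FPKM, with FLX_4 above PBS_1 to PBS_5.

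Of 44 further genes of azurophil granules, specific and gelatinase granules, surface and cytosol, 35 were tested. With 5 PBS mice, edgeR's quasi-likelihood test called 0 of 35 in PBS versus Ctrl, with 8 at an unadjusted p under 0.05, while DESeq2 called 1 (C5ar1) and limma on log2(FPKM + 0.1) 1 (Clec4d). Their median log2 fold change was 0.15. It cannot be set against the median of the 8 genes above, which were chosen with earlier results of these data known. The further genes also included some that were abundant in Ctrl kidneys, such as Cyba (mean 447 FPKM) and Msrb1 (mean 130 FPKM). In FLX versus PBS all 3 tools called 0 of 35, with 6 at an unadjusted p under 0.05 in edgeR. With 6 PBS mice, edgeR called 2, C5ar1, the receptor of complement C5a (1.81 ± 0.44, adjusted p = 0.0241), and Lcn2 (3.07 ± 0.81, adjusted p = 0.0373). Without PBS_6 their adjusted p values were 0.0524 and 0.192. C5ar1 was 0.211 to 0.637 FPKM in PBS_1 to PBS_5, 0.948 in PBS_6, 0.0508 to 0.205 in Ctrl mice and 0.127 to 0.652 in FLX mice, so that the FLX mice reached from the Ctrl range to above PBS_1, the highest of the 5 PBS mice.

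**Figure D4:**
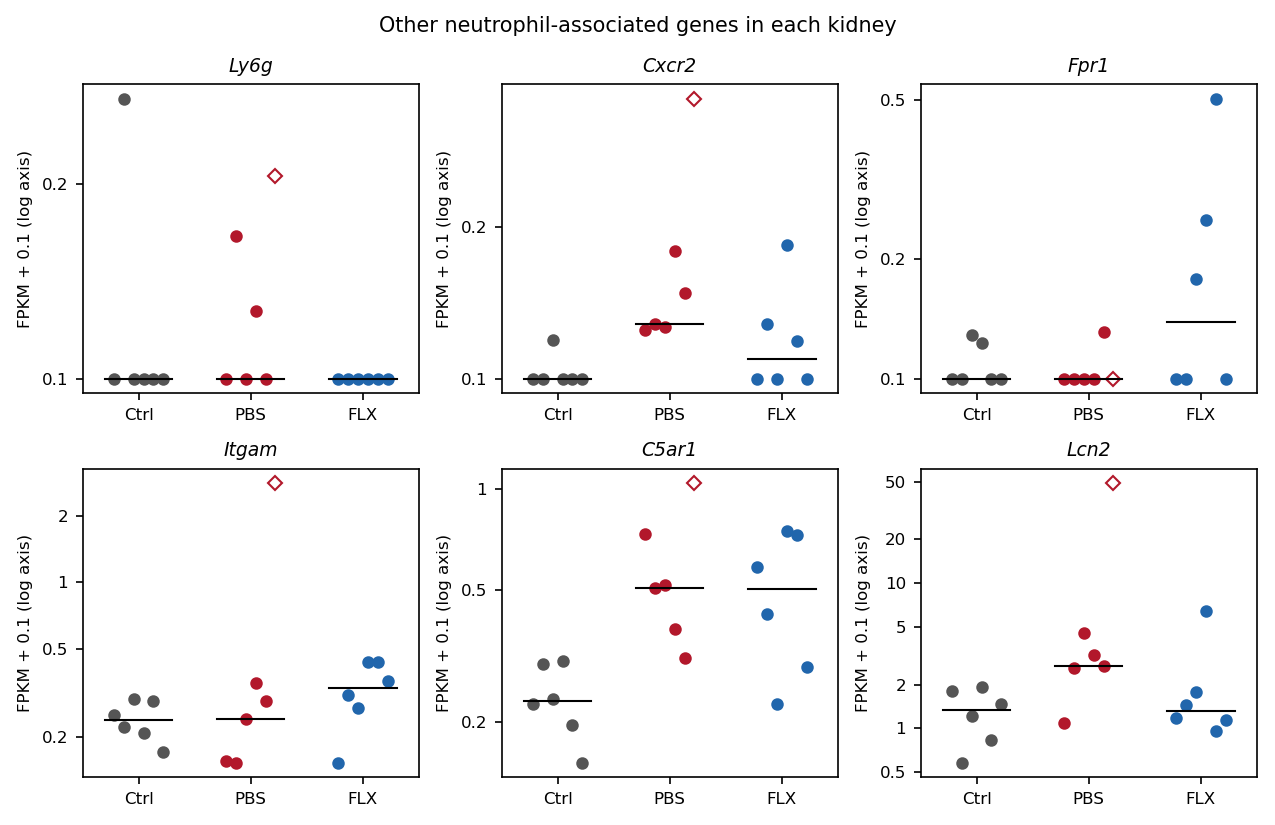
FPKM + 0.1 on a log axis in every mouse for 6 other genes associated with neutrophils, drawn as for the 9 genes above, with PBS_6 as an open diamond and group medians without it. Ly6g reaches 0.171 FPKM in Ctrl_2 and Fpr1 0.403 FPKM in FLX_5, and Itgam and Lcn2 stand out in PBS_6 at 2.73 and 49.2 FPKM. C5ar1 is above every Ctrl mouse in all PBS mice, but only just (0.211 FPKM in PBS_5 against 0.205 in Ctrl_4).

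Regulators of granulocyte genes were read from a list of 11, of which 9 were tested. In PBS versus Ctrl with 5 PBS mice edgeR called 3 higher and 0 lower, where it called 2.14% of all genes tested higher. In FLX versus PBS it called 2 lower and 0 higher, where it called 0.42% of all genes tested lower. DESeq2 called 4 and 3, where it called 4.54% of all genes it tested higher and 1.52% lower. Limma called Cebpb and Cebpd in both comparisons, against 1.84% and 0.311%. This list was chosen with earlier results of these data known, so the shares are for scale. Cebpb, a C/EBP factor of emergency granulocyte production and of stressed epithelium, was 7.92 to 12.9 FPKM in Ctrl mice, 29.3, 22.4, 19.7, 23.4 and 39.9 FPKM in PBS_1 to PBS_5, 34.2 FPKM in PBS_6 and 14.8 to 18.7 FPKM in FLX mice. No mouse of one group lay within another group. Cebpb rose by 1.34 ± 0.16 in PBS versus Ctrl (adjusted p = 0.000143 by edgeR's quasi-likelihood test), and between PBS and FLX it fell by 0.86 ± 0.16 (adjusted p = 0.0157), and both calls held on leaving out any 1 mouse. Cebpd was 1.48 to 2.89 FPKM in Ctrl mice, 5.65 to 7.20 FPKM in PBS_1 to PBS_5, 24.5 FPKM in PBS_6 and 1.77 to 4.47 FPKM in FLX mice. It rose by 1.57 ± 0.22 (adjusted p = 0.000487), and between PBS and FLX it fell by 1.14 ± 0.22 (adjusted p = 0.0190). The latter call was lost without PBS_1 (adjusted p = 0.0546) or PBS_4 (0.0520). Stat3, the factor downstream of the Csf3r receptor, rose by 0.62 ± 0.15 in PBS versus Ctrl (adjusted p = 0.0260), a call lost without Ctrl_1 (0.0569), Ctrl_2 (0.0611), Ctrl_4 (0.0502), Ctrl_5 (0.0574), PBS_1 (0.0787) or PBS_4 (0.0810). Its target and inhibitor Socs3 was 1.72, 1.01, 4.44, 5.80 and 0.943 FPKM in PBS_1 to PBS_5 and 23.8 FPKM in PBS_6, against 0.755 to 1.37 FPKM in Ctrl mice, with an adjusted p of 0.0693 with 5 PBS mice and 0.0253 with 6.

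PBS_3 and PBS_4, the mice with the highest Socs3 of the 5, were also those with the highest S100a8 and S100a9. Socs3 was named after its values were seen, and the other regulators called did not rank the 5 mice this way. Cebpb was lowest in PBS_3 (19.7 FPKM) and highest in PBS_5 (39.9 FPKM), and Cebpd was highest in PBS_1 (7.20 FPKM). Stat3 was highest in PBS_4 (9.35 FPKM) and next in PBS_1 (7.53 FPKM). A link between these levels was not tested. Cebpe, the C/EBP factor that specific granule genes need in marrow precursors, was above 0 in PBS_2 (0.0980 FPKM) and FLX_1 (0.0845 FPKM) only. Gfi1, another regulator of the lineage, was at most 0.0754 FPKM in any mouse. Csf3, the ligand of Csf3r, was at 0 in all Ctrl mice and at most 0.125 FPKM, in PBS_5. Cebpb, Cebpd and Stat3 are transcribed in many tissues. Whether the changed regulators were transcribed in neutrophils or in kidney cells was not tested.

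**Figure D5:**
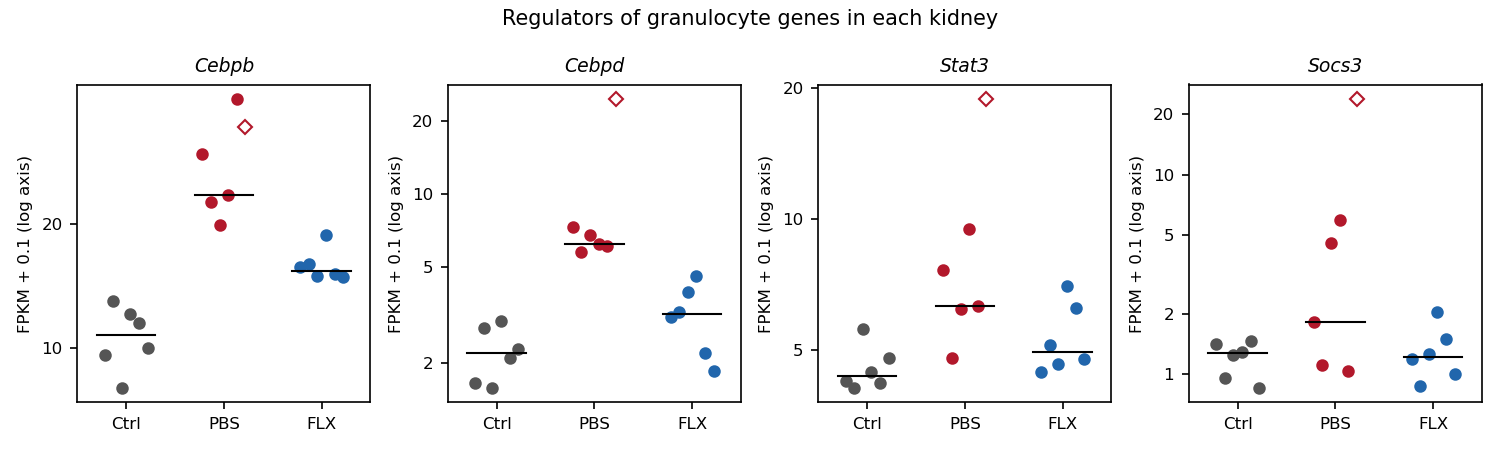
FPKM + 0.1 on a log axis in every mouse for Cebpb, Cebpd, Stat3 and Socs3, with PBS_6 as an open diamond and group medians without it. For Cebpb the 3 groups do not overlap (7.92 to 12.9 FPKM in Ctrl, 19.7 to 39.9 in PBS and 14.8 to 18.7 in FLX), and Socs3 is highest in PBS_6 at 23.8 FPKM.

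Partners of the encoded proteins were read next. Of 14 ligands, receptors and inhibitors (among them Il1a, Il1b, Tlr4, Ager and the Timp genes), 13 were tested and 0 was called by edgeR's quasi-likelihood test in PBS versus Ctrl or in FLX versus PBS with 5 PBS mice, with 5 and 2 at an unadjusted p under 0.05, and 0 in either by DESeq2 or limma. Il1b, the cytokine that the Il1r2 decoy binds, was 0.537 to 1.26 FPKM in PBS_1 to PBS_5 and 0.633 to 2.44 FPKM in Ctrl mice (-0.88 ± 0.35, adjusted p = 0.185), and was lowest of all 18 mice in PBS_6, at 0.301 FPKM, the mouse with the highest Il1r2. Timp1, an inhibitor of Mmp8 and Mmp9, was 0.882 to 2.47 FPKM in PBS_1 to PBS_5, 9.79 FPKM in PBS_6 and 0.513 to 1.32 FPKM in Ctrl mice (1.11 ± 0.57, adjusted p = 0.320). FLX mice held 0.318 to 4.56 FPKM of Timp1, from below every Ctrl mouse to above PBS_1 to PBS_5. Of 8 chemoattractants 5 were tested and 0 was called by edgeR in either comparison, with 1 and 2 at an unadjusted p under 0.05. DESeq2 called 1, Cxcl1, in PBS versus Ctrl, with 5 and with 6 PBS mice. Cxcl1, the most abundant, was 14.6, 1.62, 0.425, 13.1 and 1.86 FPKM in PBS_1 to PBS_5 and 5.79 FPKM in PBS_6, so that PBS_6 was not the highest. Ctrl mice held 0.419 to 2.98 FPKM of Cxcl1 and FLX mice 0.382 to 2.61 FPKM. By edgeR with 5 PBS mice, PBS versus Ctrl was 2.25 ± 0.74 (adjusted p = 0.101). The study reports Cxcl1 as changed in both comparisons. Of 8 molecules by which leukocytes adhere to endothelium, all tested, 0 was called by edgeR, DESeq2 or limma in either comparison with 5 PBS mice, with 1 at an unadjusted p under 0.05 in each.

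Relatives of the 9 genes were read as well. Of 10 other S100 genes 9 were tested and 0 was called by edgeR's quasi-likelihood test in PBS versus Ctrl or FLX versus PBS, with 1 and 2 at an unadjusted p under 0.05 and 1 and 0 called by DESeq2. For the 2 resistin relatives, Retn and Retnla, no call was made by edgeR, DESeq2 or limma, with 0 at an unadjusted p under 0.05. Of 11 other matrix metalloproteinases 8 were tested. In PBS versus Ctrl edgeR called 2 higher and 1 lower, where it called 3.81% of all genes tested in either direction. DESeq2 called 4 and limma 2, where they called 4.54% and 1.84% of all genes they tested higher. In FLX versus PBS 0 was called by edgeR (4 at an unadjusted p under 0.05) and 1 by DESeq2. Mmp3, stromelysin 1, rose by 2.61 ± 0.61 (adjusted p = 0.0226), from 0 to 0.0832 FPKM in Ctrl mice to 0.158 to 0.492 FPKM in PBS_1 to PBS_5, and lost the call without Ctrl_2 (0.0523) or PBS_4 (0.0517). FLX mice held 0.117 to 1.24 FPKM, and it also rose in FLX versus Ctrl (3.49 ± 0.61, adjusted p = 0.00596). Mmp19 rose by 2.47 ± 0.63 (adjusted p = 0.0349), which was lost without Ctrl_1 (0.0640), Ctrl_2 (0.0840), Ctrl_4 (0.0731), Ctrl_5 (0.0675), PBS_1 (0.0930), PBS_4 (0.0750) or PBS_5 (0.0712), and Mmp11 fell by 1.23 ± 0.25 (adjusted p = 0.0103), a call that held on leaving out any 1 mouse.

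Injured tubules make a set of proteins by which kidney injury is followed. Of 8 tubule injury markers, all tested, edgeR called 2 higher and 0 lower in PBS versus Ctrl with 5 PBS mice, against 2.14% of all genes called higher. In FLX versus PBS it called 1 lower, against 0.42% of all genes. DESeq2 called Clu, Spp1 and Vim in PBS versus Ctrl and Clu and Spp1 in FLX versus PBS. It called 4.54% of all genes it tested higher and 1.52% lower there. Limma called Clu and Spp1 in PBS versus Ctrl (1.84% of all genes higher) and Clu in FLX versus PBS (0.311% lower). Clu, clusterin, was 53.6 to 79.2 FPKM in Ctrl mice, 94.4 to 153 FPKM in PBS_1 to PBS_5, 299.6 FPKM in PBS_6 and 73.3 to 94.3 FPKM in FLX mice. It rose by 0.98 ± 0.13 (adjusted p = 0.000464 by edgeR's quasi-likelihood test), and between PBS and FLX it fell by 0.69 ± 0.13 (adjusted p = 0.0222), where the call was lost without FLX_2 (0.0535), FLX_3 (0.0520), FLX_6 (0.0635), PBS_2 (0.0505) or PBS_4 (0.0825). Spp1, osteopontin, was 285 to 532 FPKM in Ctrl mice, 534 to 931 FPKM in PBS_1 to PBS_5 and 3904 FPKM in PBS_6, and rose by 0.91 ± 0.18 (adjusted p = 0.00797). Havcr1, the kidney injury molecule of proximal tubules, was 0.346 to 1.66 FPKM in PBS_1 to PBS_5 and 9.75 FPKM in PBS_6, against 0.242 to 0.932 FPKM in Ctrl mice. It was not called in PBS versus Ctrl with 5 PBS mice (0.69 ± 0.50, adjusted p = 0.512 by edgeR). FLX mice held 0.189 to 2.40 FPKM of Havcr1, with FLX_4 above PBS_1 to PBS_5, and 371 to 678 FPKM of Spp1. PBS_6 was thus the highest of the 18 mice for Lcn2, Havcr1, Spp1, Clu, Cebpd and Socs3 as well as for S100a8 and S100a9. The part of tubule injury in the levels of the 9 genes was not tested.

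Markers of other cells that blood or attached tissue could bring were read from 7 lists with 62 genes, of which 53 were tested. With 5 PBS mice edgeR's quasi-likelihood test called 0 of 53 in PBS versus Ctrl and 0 in FLX versus PBS, with 7 and 13 at an unadjusted p under 0.05, limma called 0 in both, and DESeq2 called 3 and 6. Of the 6, 5 were red cell genes, Alas2 and 4 hemoglobin genes, lower in FLX. Summed FPKM of 8 red cell genes was 47.4 to 781 in Ctrl mice, 149.7 to 2137 in PBS_1 to PBS_5 and 39.2 to 301.2 in FLX mice. With 5 PBS mice, edgeR tested 7 of these. In PBS versus Ctrl their median log2 fold change was 1.25, with 6 higher and 0 at an unadjusted p under 0.05. In FLX versus PBS it was -2.69, with 1 higher and 6 at an unadjusted p under 0.05. For the 8 neutrophil genes tested the medians were 2.51 and -1.99. In FLX versus Ctrl the medians were -1.41 for the red cell genes and 0.19 for the neutrophil genes. Both lists were chosen with earlier results of these data known, so their medians cannot be set against each other. PBS versus Ctrl and FLX versus PBS also share their PBS mice, so opposite signs there are not separate results. Hbb-bs, a beta globin, was 121, 937, 123, 449 and 62.6 FPKM in PBS_1 to PBS_5 and 40.5 FPKM in PBS_6, so the mouse with the highest S100a8 held the least beta globin of the 6. Within the 5, PBS_4 was high in both, while PBS_2, with the most beta globin, had the least S100a8 and S100a9. Summed FPKM of 13 monocyte and macrophage markers was 55.7 to 66.0 in Ctrl mice, 60.0 to 81.5 in PBS_1 to PBS_5 and 47.6 to 107.8 in FLX mice, with a highest PBS value of 100.2 in PBS_6. Summed FPKM of 7 fat markers was 1.299 to 79.8 in Ctrl mice, 7.11 to 631 in PBS_1 to PBS_5 and 10.5 to 468 in FLX mice. For T and NK cells the sums were 1.62 to 6.12 in Ctrl, 2.57 to 3.92 in PBS_1 to PBS_5 and 3.03 to 6.20 in FLX mice, and for B cells 11.3 to 42.3, 20.8 to 35.0 and 31.4 to 69.0. Platelet genes summed to 1.94 to 4.18, 2.17 to 3.64 and 1.88 to 4.74 FPKM, and mast cell, basophil and eosinophil genes to 0.0419 to 0.657, 0.0526 to 1.95 and 0 to 2.32 FPKM. The part of these cells in the results was not tested.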

How the data were processed

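The table that the authors deposited gives FPKM and estimated counts of each gene in each mouse. Per the study's methods, reads were cleaned with fastp, mapped to GRCm38 with HISAT-3N and assembled with StringTie. The submitters' processing notes name cutadapt 1.9, HISAT2 2.0.4, UMI-tools, StringTie 1.3.4d, DESeq2 and edgeR. How the counts were made is not stated there. More genes had exactly 4 counts (median over mice 720) than 3 (484.5) or 5 (268), so counts were taken to exceed sequenced fragments. The deposited counts were tested over 17 mice (18 with PBS_6) with edgeR 4.0.16 in R 4.3.3, with TMM scaling, filterByExpr (minimum count 10) and Benjamini-Hochberg adjustment, and FPKM by exact permutation tests in SciPy 1.17.1. The procedure was tested on simulated data. DESeq2 1.42.0, limma 3.58.1 on log2(FPKM + 0.1), other filters, scalings and pseudocounts, a replicate block and leaving out each mouse were alternatives. The 9 genes and all lists of other genes were chosen with earlier results of these data known. All 9 were named, with the genes of each list called in PBS versus Ctrl or FLX versus PBS with 5 PBS mice. Other named genes, such as Ly6g, Cxcr2, Clec4d, Trem1, Lcn2, C5ar1, Socs3, Csf3, Il1b, Timp1, Havcr1, Cxcl1 and Hbb-bs, were chosen after their values were seen. The precision is limited by depth, by the number of mice in each group and by the spread between them. The p values set differences between groups against the spread between separate mice.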

Additional observations from a re-analysis of the deposited data

Results flagged for a closer look

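In 34 groups of 5 or 6 mice, 1 for each of the 9 genes in Ctrl, PBS (with and without PBS_6) and FLX where values differed, 8 had a highest mouse that stood far from the others by Dixon's criterion, which chance alone meets in about 1 of 20 groups. The PBS groups with and without PBS_6 share mice and PBS_6 had been set apart beforehand, so the number 8 is not to be read against that share. Of the 8, 5 were PBS_6 among 6 PBS mice. S100a8 was 22.1 FPKM there, against 7.65 in the next mouse. S100a9 was 32.8 FPKM, against 13.01. Ngp was 5.40 FPKM, against 0.552. Mmp9 was 0.689 FPKM, against 0.297. Il1r2 was 1.85 FPKM, against 0.276. Among the other 5 PBS mice, Retnlg stood apart in PBS_4 at 4.36 FPKM, against 1.26 in PBS_1, and Camp stood apart in PBS_3 at 0.454 FPKM, against 0.0829 in PBS_1. In the FLX group Ngp was 0.459 FPKM in FLX_5, against 0.0564 in the next mouse. FLX_5 also had the highest S100a8, Retnlg and Camp of the FLX mice, and the mouse with the highest S100a9 there was FLX_4.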

How the results depend on the processing

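The number of the 8 tested genes called was 3 in PBS versus Ctrl, 1 in FLX versus PBS and 0 in FLX versus Ctrl. In PBS versus Ctrl it became 6 by DESeq2 with all 6 PBS mice, and it lay between 0 and 5 on leaving out 1 mouse, with 0 without Ctrl_2 or PBS_4. In FLX versus PBS it became 2 by DESeq2 (also with all 6 PBS mice), 2 by limma on log2(FPKM + 0.1), 3 by that test with all 6 PBS mice, 3 with a pseudocount of 1, 0 with a pseudocount of 0.01, 2 with counts divided by 4, 0 with no filter on low counts (S100a8 adjusted p = 0.0656 by edgeR), and 0 with only FLX replicates 1 and 2 or only 3 to 6. It lay between 0 and 2 on leaving out 1 mouse. In FLX versus Ctrl it became 1 by DESeq2 with all 6 PBS mice and lay between 0 and 1 on leaving out 1 mouse. Counts divided by 4 and combinations of another choice with all 6 PBS mice were added after seeing the data. The causes of these changes were not tested.

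With the replicate block 0 genes were called in PBS versus Ctrl and 0 in FLX versus PBS, and with the replicate block and all 6 PBS mice 2 and 0. Same-numbered mice correlated between -0.211 and 0.232 in their deviations from group means, and nothing in the labels ties a number to a litter or batch, so the numbers were not taken to pair the mice. In FLX versus PBS, with 5 PBS mice, the highest correlation was that of replicate 5.

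Signs changed in FLX versus Ctrl only, where edgeR called no gene in the analysis reported. S100a8 turned to 0.23 by limma with a pseudocount of 0.01 and to 0.046 with the replicate block and all 6 PBS mice. It ran from -0.68 to 0.12 on leaving out 1 mouse, and with all 6 PBS mice was 0.12 without Ctrl_6 and 0.022 without FLX_6. S100a9 turned to -0.24 by limma on log2(FPKM + 0.1) with 5 or 6 PBS mice, -0.75 with a pseudocount of 0.01, -0.040 with the replicate block and -0.20 with FLX replicates 1 and 2 only. It ran from -0.19 to 0.48 on leaving out 1 mouse, and with all 6 PBS mice was -0.20 without FLX_4 and -0.028 without FLX_5. With FLX replicates 1 and 2 only, Retnlg turned to -1.03 and Il1r2 to -1.54. Mmp9 turned to -0.0031 with FLX replicates 3 to 6 only and ran from -0.11 to 0.32 on leaving out 1 mouse, and with all 6 PBS mice was -0.077 without Ctrl_5, -0.12 without FLX_2 and -0.044 without FLX_5. Il1r2 ran from -0.13 to 0.64, and with all 6 PBS mice was -0.077 without Ctrl_2, -0.10 without Ctrl_3 and -0.15 without FLX_6. Of all single-gene values under alternatives, 1104 kept direction and side of the threshold, 42 passed it newly, 43 no longer passed it and 30 changed sign. Genes under 0.5 FPKM rest on few counts, and their intervals are wide.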

Other observations

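The genes whose levels most resembled the 9 across mice were sought among 14144 other genes with a mean of at least 0.5 FPKM, by Pearson correlation with the mean of the standardised log2(FPKM + 0.1) of the 9, after removing group means, over 17 mice without PBS_6. The closest was Psmb10, a catalytic subunit of the immunoproteasome (r = 0.83), followed by C1qc (0.82) and C1qb (0.79), chains of complement C1q that macrophages make. Others among the first 10 were Fcer1g, the signalling chain of Fc receptors on myeloid cells (0.77), Psmb9, another immunoproteasome subunit (0.75), Slfn2, a schlafen of leukocytes (0.74), Elovl2, a fatty acid elongase (0.77), and Septin2 (0.77), with the gene models Llph-ps2 (0.79) and Gm6135 (0.75). These are descriptions, since the genes share libraries and the highest of 14144 values were picked.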
